A study of Mus musculus with 18 samples.

Results

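Fscn1, Spats2, Cdh17, Nrep, Rasgrp3, Tmem47, Stc1 and Amt are 8 mouse genes outside the usual lists of fetal blood genes. They were picked because their array signal was much higher in hematopoietic progenitors of the fetal liver than in those of the adult bone marrow. Each of the 8 symbols had 1 probe set with a single gene symbol, among 19505 genes measured. Their fetal minus adult difference, averaged over 3 cell populations, ranked between 2 and 29 of those 19505 genes. The 8 were selected on this difference in log2 signal, so it is given as a description without a test; the choice named no threshold.

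The cells came from C57Bl/6J mice, either from the fetal liver (FL) of embryos at E13.5 or from the bone marrow (BM) of adults aged 3 to 12 months. From each source, cells of the LSK gate (lineage negative, Sca-1 and Kit positive) were divided with Cd150 and Cd48, by gates that the labels do not spell out, into stem cells of long-term (LT-HSC) and of short-term (ST-HSC) activity and multipotent progenitors (MPP). This gave 6 groups of 3 arrays, FL LT-HSC, FL ST-HSC, FL MPP, BM LT-HSC, BM ST-HSC and BM MPP, lettered a to c. Titles and stage labels give no transgene or treatment. The free-text descriptions instead speak of transplanted mice and name the guide sgEzh2 for 4 FL arrays (LT-HSC a, ST-HSC a, MPP a and MPP b) and sgLuc for the others; titles and stages were used here, and calls of the 8 genes that were lost without those 4 arrays are named. The labels do not tie the arrays to individual mice, so a p-value measures only the spread between these samples.

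The median log2 signal of an array was 7.68 to 7.78. The interquartile range was 2.98 to 3.18 in 14 arrays and 2.61 to 2.71 in the 4 narrow arrays FL LT-HSC b, BM LT-HSC c, BM ST-HSC b and BM ST-HSC c. Kit was at 13.04 to 13.37 in FL and 12.81 to 13.3 in BM, and 7 of 9 listed stem and progenitor markers were measured. Slamf1, which encodes Cd150, was at 9.12 to 9.47 in FL LT-HSC and 9.20 to 9.95 in BM LT-HSC, and at 6.43 to 6.86 in FL MPP and 7.16 to 7.42 in BM MPP. BM LT-HSC c stood apart, with Cd48 at 11.4 and a mean of 10 neutrophil genes at 12.61. The mean of the neutrophil genes was 6.40 to 7.53 in FL and 10.15 to 12.61 in BM, with all 10 lower in FL in the average over populations, in which limma called 15.9% of all genes higher, 9.26% lower and 25.1% in either direction. Other lists, as the range of array means in FL and then in BM, were 7.65 to 8.93 and 7.51 to 7.78 for 15 hepatocyte genes, 7.16 to 8.36 and 6.91 to 7.81 for 9 endothelial genes, 6.95 to 7.36 and 6.91 to 7.75 for 9 stromal genes, 7.38 to 8.25 and 8.18 to 9.64 for 8 B cell genes, 6.39 to 6.72 and 7 to 8.43 for 9 macrophage genes, and 7.69 to 10.13 and 8.01 to 9.36 for 7 erythroid genes. The deposited values carry no detection call, so no marker can be named as absent.

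The fetal liver is where blood stem cells multiply before birth, and most of their adult descendants in the marrow divide rarely. The 8 genes have no shared pathway. Fscn1, Cdh17 and Tmem47 act in cell shape and contact: fascin bundles actin filaments in the thin protrusions of migrating cells, Cdh17 is the liver-intestine cadherin, and Tmem47 is a small junction protein related to the claudin and Pmp22 families. Rasgrp3, Stc1 and Nrep act in signalling, as a diacylglycerol-regulated activator of Ras and Rap, a secreted glycoprotein of the stanniocalcin family, and a small intracellular protein known from regenerating nerve and from TGF-beta biology in mice. Amt is the aminomethyltransferase of the mitochondrial glycine cleavage system, and Spats2 is a little-studied protein named after its expression in sperm development. All 8 are protein coding in RefSeq (GRCm38.p6), with Fscn1 at chr5:142960355-142973189, Spats2 at chr15:99125926-99213215, Cdh17 at chr4:11758157-11817905, Rasgrp3 at chr17:75435870-75529054, Tmem47 at chrX:81070644-81097875, Stc1 at chr14:69029289-69041401 and Amt at chr9:108296905-108302302. The build behind the array's annotation is not given in the labels.

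Promoter windows were found in RefSeq (GRCm38.p6) for 5 of the 8 genes, as 6 windows, since Rasgrp3 has 2. The 250 bases before a start site are shown for 4 genes, so that these sequences can be compared between genes that were high together in FL. They come from the plus strand at chr5:142960105-142960354 (Fscn1), chr15:99126595-99126844 (Spats2), chrX:81070394-81070643 (Tmem47) and chr9:108296655-108296904 (Amt). The Spats2 window lies within the gene span given above, before a start site inside that span. Capitals mark matches, on either strand, to any of 7 motifs. The TATA box was searched as TATAAA. For the GATA factors the letters were AGATAA. The Runx factors were given as TGTGGT. An E-box was taken to be CACGTG. The site of AP-1 was entered as TGACTCA on both strands. For GC boxes the letters were GGGCGG. The last motif was the CCAAT box, read as its name.
Fscn1: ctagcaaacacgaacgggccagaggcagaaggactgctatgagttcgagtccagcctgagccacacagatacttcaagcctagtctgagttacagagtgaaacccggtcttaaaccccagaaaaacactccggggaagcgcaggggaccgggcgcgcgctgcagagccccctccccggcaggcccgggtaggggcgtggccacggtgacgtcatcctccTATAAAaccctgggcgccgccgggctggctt
Spats2: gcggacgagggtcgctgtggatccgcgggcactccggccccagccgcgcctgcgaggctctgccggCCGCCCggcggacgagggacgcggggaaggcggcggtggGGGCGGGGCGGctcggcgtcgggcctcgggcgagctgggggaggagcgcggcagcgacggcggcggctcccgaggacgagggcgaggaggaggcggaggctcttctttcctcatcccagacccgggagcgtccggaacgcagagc
Tmem47: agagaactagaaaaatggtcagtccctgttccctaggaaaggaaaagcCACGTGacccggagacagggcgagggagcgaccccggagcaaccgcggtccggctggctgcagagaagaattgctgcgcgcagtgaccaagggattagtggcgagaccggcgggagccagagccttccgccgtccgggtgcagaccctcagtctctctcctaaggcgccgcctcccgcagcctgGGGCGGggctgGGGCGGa
Amt: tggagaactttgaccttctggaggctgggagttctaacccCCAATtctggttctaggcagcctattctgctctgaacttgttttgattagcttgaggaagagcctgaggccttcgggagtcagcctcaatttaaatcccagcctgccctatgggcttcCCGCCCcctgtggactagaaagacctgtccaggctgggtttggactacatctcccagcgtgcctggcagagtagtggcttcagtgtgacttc

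The windows differed in make-up. Spats2 had 78.4% G and C with 39 CpG dinucleotides, Tmem47 65.6% with 21, Fscn1 62.4% with 18 and Amt 53.6% with 3. The median over 32851 windows of the same length was 52.4% with 6 CpG. The 2 windows of Rasgrp3 had 47.6% with 4 and 52.8% with 8. A TATA box began 31 bases before the Fscn1 start, and 12.4% of all windows hold that motif on either strand. GC boxes matched 3 times in Spats2, with 2 of the matches overlapping, 2 times in Tmem47 and once in Amt, against 32.7% of all windows with at least 1. Tmem47 also held an E-box (6.02% of windows) and Amt a CCAAT box (33.8%). The first Rasgrp3 window had a TATA match on the minus strand, and the second held none of the 7 motifs. The searched GATA, Runx and AP-1 letters, found in 9.99%, 14% and 4.46% of all windows, were in none of these 6 windows.

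**Figure D1:**
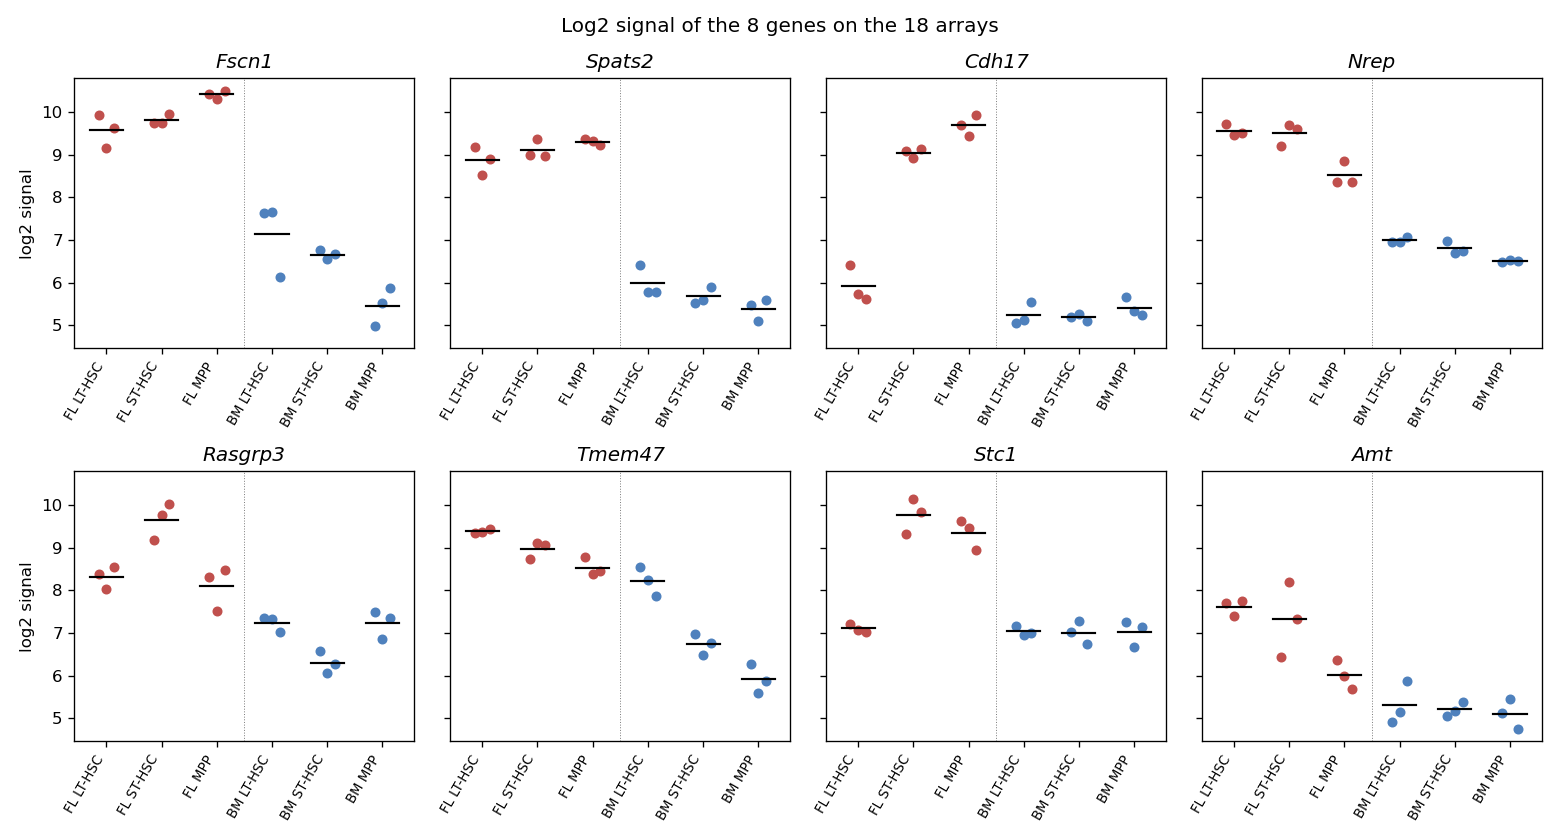
Log2 signal (y axis) of each gene on the 18 arrays, with the 3 FL groups in red left of the 3 BM groups in blue; points are arrays and black lines are group means. Fscn1 and Spats2 were high in every FL group, Cdh17 and Stc1 were high in FL ST-HSC and FL MPP, and Rasgrp3 peaked in FL ST-HSC at 9.17 to 10.03.

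Fscn1, the actin bundler, was at 9.94, 9.16 and 9.63 in FL LT-HSC, 9.73, 9.75 and 9.95 in FL ST-HSC arrays, and 10.42, 10.31 and 10.5 in the FL MPP arrays (log2 signal, arrays a, b and c). In BM it was at 7.63, 7.66 and 6.13 in LT-HSC, 6.76, 6.54 and 6.66 in ST-HSC and 4.99, 5.52 and 5.86 in MPP. Every FL array lay above every BM array, and the order of the populations ran upward from LT-HSC to MPP in FL and downward in BM. The FL minus BM difference was 2.44 ± 0.31 in LT-HSC, 3.16 ± 0.31 in ST-HSC and 4.95 ± 0.31 in MPP (log2, ± SE of the fit), the last a 31-fold difference and the largest of all genes in MPP. In these bulk samples a smaller share of expressing cells and less RNA per cell cannot be told apart.

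Differences between populations of the same source were not used to pick the genes and were tested with limma over all genes. For a balanced design these contrasts are independent of the averaged difference, but not of a difference within 1 population, should a gene have been picked for that. Of the 8 genes, 2 were higher in BM LT-HSC than in BM MPP, where 2.23% of all genes were called higher and 4.57% in either direction. Fscn1 was one of them, by 1.68 ± 0.31 (adjusted p = 0.00312), and it was also higher in BM ST-HSC than in BM MPP by 1.19 ± 0.31 (adjusted p = 0.0288). The FL differences did not pass, with LT-HSC minus MPP at -0.83 ± 0.31 (adjusted p = 0.191, limma). In fits of only the groups compared it passed (adjusted p = 0.0383), as did ST-HSC minus MPP in FL (-0.60, adjusted p = 0.015). Fscn1 in the narrow array BM LT-HSC c, which also had the highest neutrophil mean, was 6.13. Without that array LT-HSC minus MPP in FL passed (-0.83, adjusted p = 0.0131), and LT-HSC minus ST-HSC in BM passed at 0.99 (adjusted p = 0.0152, against 0.572 with it). The BM ST-HSC against MPP call was lost without BM ST-HSC b or c or BM MPP a or b (adjusted p 0.0792 to 0.138) under repeated quantile normalization (0.0657) and without the 4 sgEzh2 arrays (0.084), and the BM LT-HSC against MPP call in a fit of those groups alone (0.111).

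Cdh17 encodes a calcium-dependent adhesion protein that goes by the name liver-intestine cadherin. FL LT-HSC arrays read 6.42, 5.73 and 5.61, FL ST-HSC arrays 9.09, 8.93 and 9.12, and FL MPP arrays 9.7, 9.43 and 9.93. In BM the 9 arrays ran from 5.05 to 5.66 with a median of 5.23. The 6 FL ST-HSC and MPP arrays stood far above the rest. FL LT-HSC c lay within the range of BM MPP, and all 3 FL LT-HSC arrays lay above the BM LT-HSC arrays. The FL minus BM difference was 0.69 ± 0.19 in LT-HSC, 3.87 ± 0.19 in ST-HSC and 4.28 ± 0.19 in MPP. Cdh17 was lower in FL LT-HSC than in FL MPP by a log2 difference of -3.77 ± 0.19, or 13.6-fold (adjusted p = 5.37e-09), and lower than in FL ST-HSC by -3.13 ± 0.19 (adjusted p = 1.2e-07). In BM the LT-HSC minus MPP difference was -0.17 with a 95% interval of -0.58 to 0.24 (adjusted p = 0.726). FL ST-HSC minus FL MPP was -0.64 ± 0.19 and did not pass (adjusted p = 0.111), though the arrays of these groups did not overlap; it passed without FL LT-HSC a (0.0463) and in a fit of those groups alone (0.0281).

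Tmem47, the junction protein on the X chromosome, read 9.34, 9.37 and 9.44 in FL LT-HSC, 8.74, 9.11 and 9.06 in FL ST-HSC arrays, and 8.78, 8.38 and 8.44 in the FL MPP arrays. The BM arrays read 8.54, 8.23 and 7.87 in LT-HSC, 6.98, 6.49 and 6.76 in ST-HSC and 6.26, 5.59 and 5.87 in MPP. Signal therefore declined from LT-HSC to MPP in both sources, more steeply in BM, and BM LT-HSC reached into the range of FL MPP. LT-HSC exceeded MPP by 0.85 ± 0.19 in FL (adjusted p = 0.0161) and by 2.31 ± 0.19 in BM (adjusted p = 7.47e-07). The FL call was lost without FL LT-HSC c, FL MPP b or FL MPP c (0.0676 to 0.0906). In BM, Tmem47 also stepped down from LT-HSC to ST-HSC (LT-HSC minus ST-HSC 1.47 ± 0.19, adjusted p = 0.000374, and 0.104 in a fit of those groups alone). It stepped down again to MPP (ST-HSC minus MPP 0.84 ± 0.19, adjusted p = 0.0144, lost without BM ST-HSC c, BM MPP b or BM MPP c at 0.0519 to 0.0998). FL minus BM was 1.17 ± 0.19 in LT-HSC, 2.22 ± 0.19 in ST-HSC and 2.63 ± 0.19 in MPP. The Y-linked gene Uty was at 6.92 to 7.77 in FL and 3.77 to 4.17 in BM. Kdm5d, also Y-linked, was at 6.64 to 8.09 in FL and 4.07 to 4.88 in BM. The Y-linked Eif2s3y overlapped between the sources, at 4.83 to 5.56 in FL and 4.5 to 5.33 in BM. The labels give no sex, and source and sex make-up cannot be told apart here, for Tmem47 or for the genes on other chromosomes.

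Rasgrp3 activates Ras and Rap downstream of diacylglycerol, best known in B cells. Its FL values were 8.38, 8.03 and 8.55 in LT-HSC, 9.17, 9.76 and 10.03 in ST-HSC and 8.32, 7.51 and 8.48 in MPP. BM values were 7.35, 7.32 and 7.01 in LT-HSC, 6.57, 6.07 and 6.27 in ST-HSC and 7.48, 6.85 and 7.34 in MPP. ST-HSC was thus the highest population in FL and the lowest in BM, without overlap with the other populations in either source. FL LT-HSC minus FL ST-HSC was -1.34 ± 0.25 (adjusted p = 0.0169, limma), and FL ST-HSC minus FL MPP was 1.55 ± 0.25 (adjusted p = 0.00188). BM ST-HSC was lower than BM MPP by -0.92 ± 0.25 (adjusted p = 0.0393), while BM LT-HSC minus BM ST-HSC, at 0.92 ± 0.25, did not pass (adjusted p = 0.074). The first call was lost without FL LT-HSC b, FL ST-HSC b or FL ST-HSC c (0.0904 to 0.122), and the BM call without any of BM ST-HSC b and c and BM MPP a, b and c (0.0524 to 0.174) or without the 4 narrow arrays (0.423). BM LT-HSC minus BM ST-HSC passed instead without FL MPP b, BM LT-HSC c or BM ST-HSC a (0.0442 to 0.0488). The FL minus BM difference was 1.09 ± 0.25 in LT-HSC, 3.35 ± 0.25 in ST-HSC and 0.88 ± 0.25 in MPP. The mean of 8 B cell genes was 7.71 to 8.16 in FL ST-HSC and 8.18 to 8.32 in BM ST-HSC, and its part in the result was not tested.

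Stc1, the secreted stanniocalcin, was at 7.21, 7.07 and 7.03 in FL LT-HSC, 9.33, 10.14 and 9.84 in FL ST-HSC arrays, and 9.63, 9.47 and 8.95 in the FL MPP arrays. The BM arrays held between 6.68 and 7.27, with a median of 7.01. FL LT-HSC overlapped with BM LT-HSC (FL minus BM 0.07, 95% interval -0.38 to 0.51), and the high arrays were those of FL ST-HSC and FL MPP, at 2.76 ± 0.21 and 2.32 ± 0.21 above BM. Within FL, LT-HSC was lower than ST-HSC by -2.66 ± 0.21, or 6.34-fold (adjusted p = 1.94e-06), and lower than MPP by -2.24 ± 0.21 (adjusted p = 3.18e-06). FL ST-HSC minus FL MPP was 0.42 ± 0.21 (adjusted p = 0.406). In BM the 3 population differences lay between -0.02 and 0.03, with intervals between -0.46 and 0.47, and none passed (adjusted p 0.967 to 0.989). Stc1 and Cdh17 were the 2 genes of the 8 that were lower in FL LT-HSC than in FL MPP, where 1.84% of all genes were called lower. With Rasgrp3 they were the 3 that were lower in FL LT-HSC than in FL ST-HSC, where 0.467% of all genes were called lower and 0.559% in either direction.

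Nrep (chr18:33437019-33464365) encodes a small protein expressed in regenerating neurons. It was at 9.71, 9.46 and 9.51 in FL LT-HSC, 9.21, 9.7 and 9.59 in FL ST-HSC arrays, and 8.35, 8.85 and 8.35 in the FL MPP arrays, against 6.94, 6.96 and 7.06 in BM LT-HSC, 6.98, 6.69 and 6.73 in BM ST-HSC and 6.48, 6.53 and 6.51 in BM MPP. All FL arrays lay above all BM arrays, and FL MPP lay below both FL stem cell groups. Nrep was higher in FL LT-HSC than in FL MPP by 1.05 ± 0.15 (adjusted p = 0.000306) and higher in FL ST-HSC than in FL MPP by 0.98 ± 0.15 (adjusted p = 0.00115). In BM, LT-HSC minus MPP was 0.48 ± 0.15 with no overlap of arrays, but did not pass (adjusted p = 0.0893). FL minus BM was 2.58 ± 0.15 in LT-HSC, 2.70 ± 0.15 in ST-HSC and 2.01 ± 0.15 in MPP.

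Amt passes the one-carbon unit of glycine to tetrahydrofolate and is abundant in liver. FL LT-HSC arrays read 7.71, 7.39 and 7.75, FL ST-HSC arrays 6.43, 8.19 and 7.33, and FL MPP arrays 6.37, 5.99 and 5.68, while the 9 BM arrays ran from 4.75 to 5.87 with a median of 5.15. FL LT-HSC stood clear of FL MPP, the FL ST-HSC arrays were the most spread, and FL MPP c lay below the highest BM array. FL LT-HSC exceeded FL MPP by 1.60 ± 0.33 (adjusted p = 0.00821, limma; 0.0567 without FL MPP c), and FL ST-HSC exceeded FL MPP by 1.3 ± 0.33. The ST-HSC difference passed narrowly (adjusted p = 0.0459) and was lost on leaving out any 1 of 14 arrays (0.0512 to 0.207); FL ST-HSC a, BM LT-HSC a, BM LT-HSC c and BM ST-HSC a were the ones that could be left out. FL minus BM was 2.31 ± 0.33 in LT-HSC, 2.11 ± 0.33 in ST-HSC and 0.90 ± 0.33 in MPP. Albumin (Alb) was at 8.70, 8.82 and 11.79 in FL LT-HSC, 9.92, 10.95 and 7.77 in FL ST-HSC arrays, and 9.79, 9.43 and 8.87 in the FL MPP arrays, against 6.50 to 7.17 in BM. In each FL population the array with the highest Alb (LT-HSC c, ST-HSC b and MPP a) also had the highest Amt. In LT-HSC this match was narrow, with Amt at 7.75 in c and 7.71 in a against Alb at 11.79 and 8.70. The other arrays ranked alike for Alb and Amt in MPP, and in opposite order in LT-HSC and ST-HSC. The Alb arrays of the FL populations overlapped. Of the 15 hepatocyte genes, Alb included, 4 were higher and 2 lower in FL in the average, against 15.9% and 9.26% of all genes.

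Amt, Nrep and Tmem47 were the 3 genes higher in FL LT-HSC than in FL MPP, where 1.57% of all genes were called higher and 3.4% in either direction. Amt, Nrep and Rasgrp3 were the 3 higher in FL ST-HSC than in FL MPP, against 1.58% of all genes higher and 2.26% in either direction. The mean of the endothelial list was also higher in FL LT-HSC than in FL MPP. The mean of the 9 measured was 8.18 to 8.36 in FL LT-HSC, 8 to 8.36 in FL ST-HSC arrays, and 7.16 to 7.35 in the FL MPP arrays, and in BM it was 7.55 to 7.81 in LT-HSC, 6.98 to 7.22 in ST-HSC and 6.91 to 7.06 in MPP. Of these 9 genes 5 were higher in FL in the average, against 15.9% of all genes. The endothelial cadherin Cdh5 was at 8.52 to 9.14 in FL LT-HSC and 6.2 to 6.66 in FL MPP. Not every member followed: Stab2 averaged 5.20 in FL LT-HSC and 5.18 in FL MPP, and Pecam1 was highest in BM MPP (9.59). Of Amt, Nrep and Tmem47, only Tmem47 was called between LT-HSC and MPP in BM. The part of endothelial or liver cells in the signal of Amt, Nrep and Tmem47 was not tested.

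Spats2, the little-studied gene named for sperm development, was at 9.19, 8.53 and 8.90 in FL LT-HSC, 9, 9.37 and 8.97 in FL ST-HSC arrays, and 9.37, 9.31 and 9.22 in the FL MPP arrays, against 6.42, 5.78 and 5.78 in BM LT-HSC, 5.52, 5.60 and 5.90 in BM ST-HSC and 5.47, 5.10 and 5.59 in BM MPP. All FL arrays lay more than 2 log2 units above all BM arrays, and neighbouring populations of a source overlapped. None of its 6 population differences passed; LT-HSC minus MPP was -0.42 ± 0.20 in FL (adjusted p = 0.339) and 0.61 ± 0.20 in BM (adjusted p = 0.0982, 0.0322 without the 4 narrow arrays). FL minus BM was 2.88 ± 0.20 in LT-HSC, 3.44 ± 0.20 in ST-HSC and 3.91 ± 0.20 in MPP, or 15.1-fold in MPP.

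**Figure D2:**
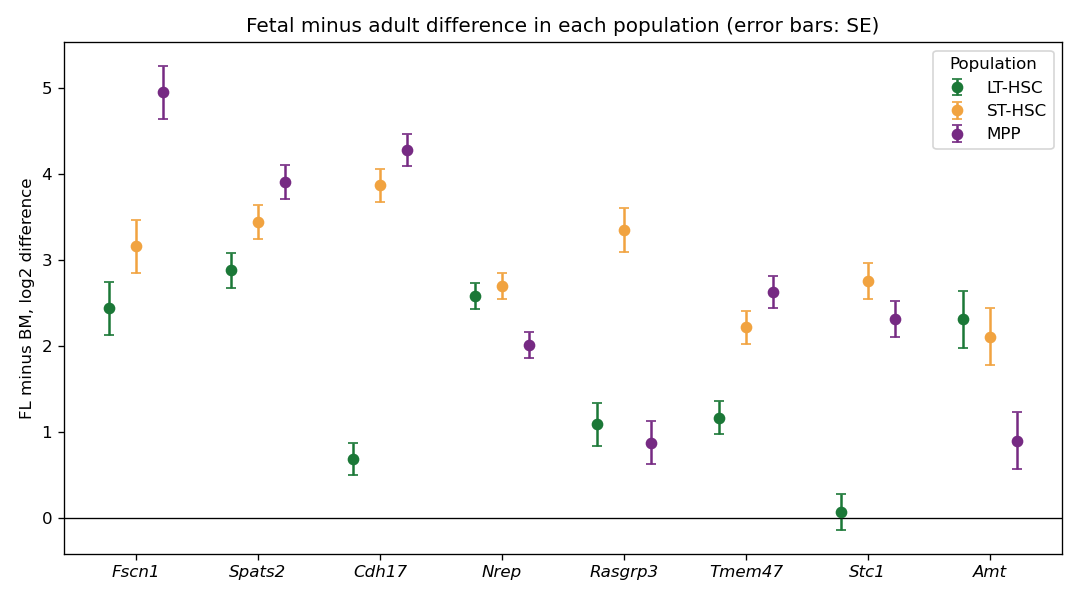
FL minus BM log2 difference (y axis) of each gene in LT-HSC, ST-HSC and MPP, as points with SE from the limma fit (3 arrays against 3). The widest gap was that of Fscn1 in MPP at 4.95, and that of Stc1 in LT-HSC was 0.07.

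Set side by side, 4 of the 8 genes (Fscn1, Spats2, Nrep and Rasgrp3) had all 9 FL arrays above all 9 BM arrays, and 7 were separated in each population, the exception being Stc1 in LT-HSC. Over all genes these shares were 1.36% and 4.35%; since the genes were picked for this difference nothing is read from their count. The median of the averaged difference was 2.22 for the 8 genes and 0.01 for all genes. The highest FL population was LT-HSC for 3 genes (Nrep, Tmem47, Amt), ST-HSC for 2 (Rasgrp3, Stc1) and MPP for 3 (Fscn1, Spats2, Cdh17), against 34.6%, 25.1% and 40.4% of all genes. In BM, LT-HSC had the highest mean for 7 of the 8, MPP for 1 (Cdh17) and ST-HSC for 0, against 26.2%, 39.8% and 33.9% of all genes. Some of these orders are near ties, and 2 of the 8 passed as higher in BM LT-HSC than in BM MPP.

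Whether the fetal minus adult difference depended on the population was asked with a moderated F test of the interaction. It was called for 5 of the 8 genes, against 0.82% of all genes: Cdh17 (F = 102, adjusted p = 4.23e-06), Stc1 (F = 47, adjusted p = 0.000338), Rasgrp3 (F = 29.1, adjusted p = 0.00276), Fscn1 (F = 17.5, adjusted p = 0.016) and Tmem47 (F = 15.4, adjusted p = 0.0254). Nrep (adjusted p = 0.234), Spats2 (0.185) and Amt (0.273) did not pass. Like the population contrasts, the interaction tests are independent of the averaged difference. They are not independent of a difference within 1 population, should a gene have been picked for that. By the difference within a population, Stc1 ranked 17 in ST-HSC, 14 in MPP and 8774 in LT-HSC. For the LT-HSC minus MPP difference alone, FL minus BM was called lower for 4 genes, against 0.328% of all genes lower and 0.543% in either direction. These were Cdh17 (-3.59 ± 0.28, adjusted p = 3.53e-06), Fscn1 (-2.52 ± 0.44, adjusted p = 0.0102), Stc1 (-2.26 ± 0.30, adjusted p = 0.00176) and Tmem47 (-1.46 ± 0.27, adjusted p = 0.0151). Cdh17 and Stc1 differed between populations in FL and not detectably in BM, Tmem47 fell from LT-HSC to MPP in both sources but by less in FL, and Fscn1 had opposite signs. Cdh17 was at 5.05 to 5.66 and Stc1 at 6.68 to 7.27 in BM, and Fscn1 was at 4.99 to 5.86 in BM MPP. Without detection calls, differences hidden near background could not be seen there. For Amt the interaction was 1.40 ± 0.47 (adjusted p = 0.317), for Nrep 0.57 ± 0.21 (0.463) and for Spats2 -1.03 ± 0.28 (0.14).

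Single arrays ended some of these calls. The F test of Fscn1 was lost without FL MPP a, FL MPP c or BM MPP a (adjusted p 0.0511 to 0.0595). That of Tmem47 was lost without any of 9 arrays, FL LT-HSC a, b and c, FL MPP a and c, BM LT-HSC a and b, and BM MPP b and c (0.0515 to 0.0718), and its LT-HSC minus MPP interaction without FL MPP a, BM MPP b or BM MPP c (0.051 to 0.0596). On dropping the 4 sgEzh2 arrays, after which 1 FL MPP array remains and is assumed to vary like the other groups, the LT-HSC minus MPP interaction of Fscn1 (-2.79, adjusted p = 0.312), Stc1 (-1.91, 0.113) and Tmem47 (-1.35, 0.541) no longer passed. The F test was lost too for Fscn1 (adjusted p = 0.362) and Tmem47 (0.438). Within FL, LT-HSC minus MPP of Tmem47 (0.96, adjusted p = 0.344) and Amt (1.88, 0.0624) and ST-HSC minus MPP of Rasgrp3 (1.42, 0.12) and Amt (2.07, 0.0766) were lost in the same way.

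**Figure D3:**
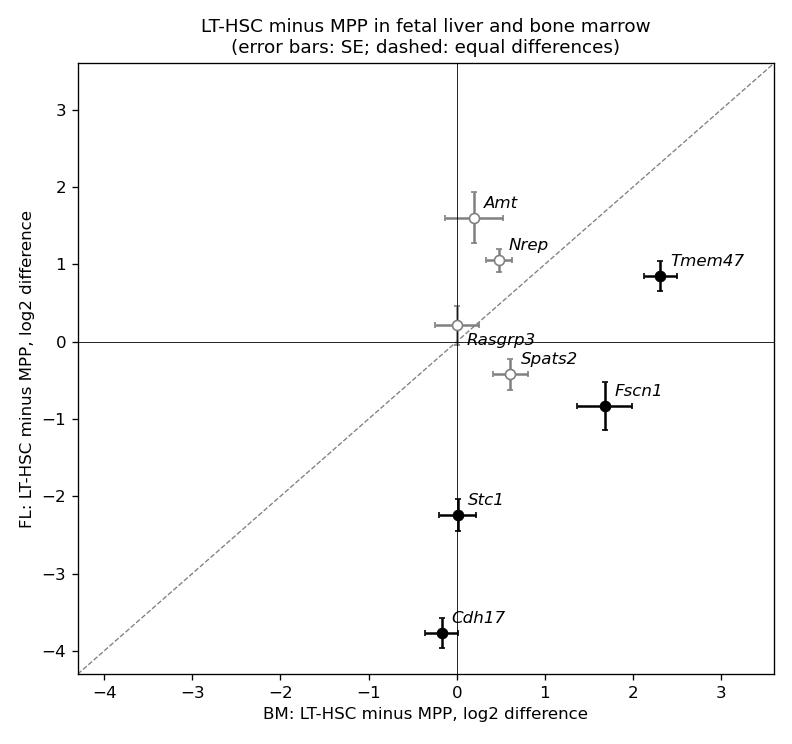
LT-HSC minus MPP log2 difference in FL (y axis) against that in BM (x axis) for the 8 genes, with SE; filled points passed the test of the difference between sources. Cdh17 lies at -3.77 in FL and -0.17 in BM, and Fscn1 at -0.83 in FL and 1.68 in BM.

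In BM, 1 of the 8 genes, Tmem47, differed between LT-HSC and ST-HSC, against 1.21% of all genes higher and 1.71% in either direction. Fscn1 and Tmem47 were the 2 higher in BM LT-HSC than in BM MPP. Between BM ST-HSC and BM MPP, 3 were called (Fscn1 and Tmem47 higher, Rasgrp3 lower), where 6.1% of all genes were called, 1.31% higher and 4.79% lower.

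Relatives were listed for all of the 8 genes except Nrep and Amt. In the averaged FL minus BM difference 1 of 15 listed relatives passed as higher, 2 passed as lower and 12 did not. Over all genes 15.9% were called higher and 9.26% lower, or 25.1% in either direction. The share of relatives called is near that of all genes, and nothing is read from it. By population, 7.66% of all genes were called in LT-HSC, 18.7% in ST-HSC and 5.47% in MPP. The fascin relatives Fscn2 and Fscn3 were at 0.21 ± 0.11 (adjusted p = 0.174) and 0.22 ± 0.11 (adjusted p = 0.169). Spats2l (-0.11 ± 0.10) and Spats1 (-0.03 ± 0.08) did not pass, nor did Cdh16 (0.12 ± 0.09). Among Ras activators of the same family Rasgrp1 (-0.23 ± 0.12), Rasgrp2 (0.09 ± 0.06) and Rasgrp4 (0.48 ± 0.20, adjusted p = 0.0988) did not pass. Stc2, the other stanniocalcin, was the one that rose, by 0.99 ± 0.12 (adjusted p = 6.74e-06), with values of 6.30 to 7.12 in FL against 5.35 to 6.31 in BM. Of the relatives of Tmem47, Emp1 (-0.79 ± 0.14, adjusted p = 0.000477) and Cldn1 (-0.51 ± 0.14, adjusted p = 0.0104) were lower in FL, and Pmp22 (-0.15 ± 0.16), Emp2 (-0.19 ± 0.08), Emp3 (-0.14 ± 0.06) and Perp (0.10 ± 0.09) did not pass.

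**Figure D4:**
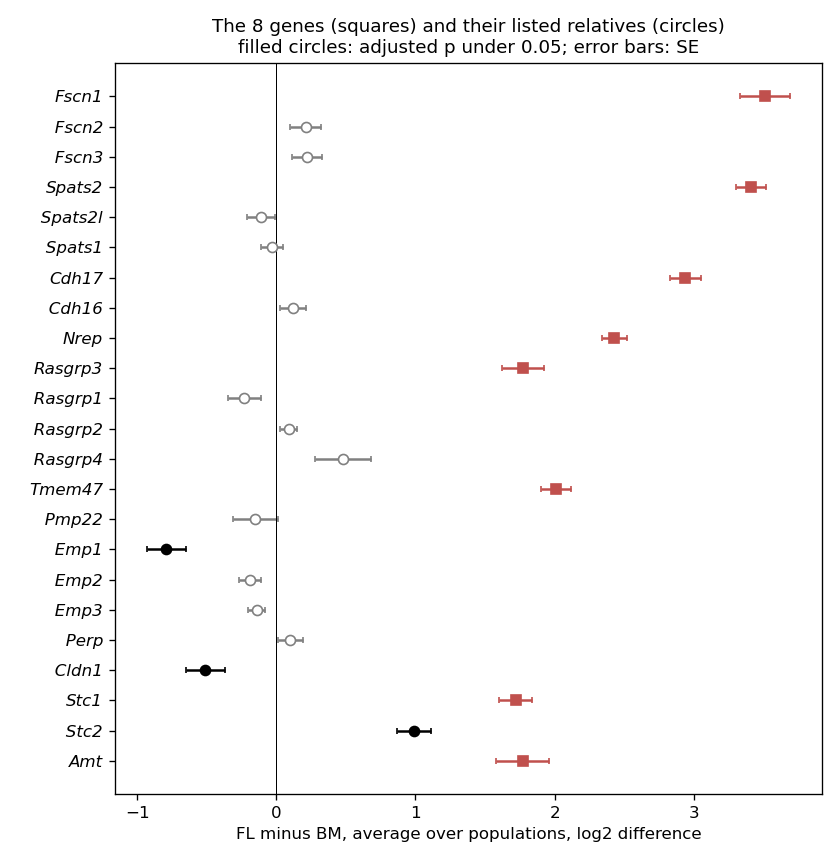
Averaged FL minus BM log2 difference (x axis) with SE for the 8 genes (red squares) and the relatives listed below them (circles, filled where they passed the limma test). Nrep and Amt have no listed relatives. The squares lie between 1.72 and 3.51, and the circles between -0.79 and 0.99.

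Of the wider groups around the 8 genes, the glycine cleavage and one-carbon list, around Amt, had the most members higher in FL. The counts of this and the following lists stand beside 15.9% of all genes called higher, 9.26% lower and 25.1% in either direction. Here 9 of 21 measured genes passed as higher, 1 as lower and 11 did not pass, with a median difference of 0.30 against 0.01 for all genes. The mitochondrial folate enzyme Mthfd2 (1.03 ± 0.11, adjusted p = 2.8e-06), the serine hydroxymethyltransferase Shmt1 (0.76 ± 0.10, adjusted p = 2.92e-05), the serine synthesis enzyme Psat1 (0.57 ± 0.12, adjusted p = 0.00176) and Dld (0.51 ± 0.09, adjusted p = 0.000373), a subunit shared by glycine cleavage and other dehydrogenases, led. The member that fell was Aldh1l1 (-0.45 ± 0.14). The other glycine cleavage proteins, Gldc (0.03 ± 0.09, adjusted p = 0.826) and Gcsh (0.09 ± 0.13, adjusted p = 0.661), did not pass.

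For Ras exchange and the MAP kinase pathway, 7 of 24 measured genes passed as higher, 4 as lower and 13 did not pass, with a median of 0.04. The small GTPase genes Mras (-1.40 ± 0.10) and Rras2 (0.85 ± 0.11) and the exchange factor gene Sos2 (-0.72 ± 0.10) changed most, with the diacylglycerol kinase gene Dgka (-0.58 ± 0.09), at adjusted p between 7.97e-09 and 7.65e-05. In the stanniocalcin and pappalysin list, which holds the insulin-like growth factor genes that pappalysins release from their binding proteins, 5 of 13 passed as higher, 3 as lower and 5 as neither, with a median of 0.02. It was led by Igf2 (2.48 ± 0.09), and Stc2 was next among those that rose. Igfbp7 (-1.02 ± 0.15), Igf2r (0.72 ± 0.25), Igfbp5 (-0.57 ± 0.19), Igf1 (0.52 ± 0.09), Igfbp4 (0.37 ± 0.07) and Pappa (-0.30 ± 0.08) also passed. Of 18 TGF-beta pathway genes 3 passed as higher, 4 as lower and 11 did not pass, with a median of 0.04. The latent TGF-beta binding protein gene Ltbp3 (-1.58 ± 0.15), the corepressor gene Skil (-1.03 ± 0.15), Smad7 (-0.65 ± 0.23, not called after repeated quantile normalization) and Tgfb3 (-0.35 ± 0.10) were lower, and Lrrc32 (0.98 ± 0.12) and the receptor genes Tgfbr1 (0.73 ± 0.10) and Tgfbr2 (0.32 ± 0.10) were higher.

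Among 20 junction genes 4 passed as higher, 3 as lower and 13 did not pass, with a median of 0.08. The tight junction gene Ocln (1.52 ± 0.13, adjusted p = 1.4e-07) rose with Tjp1 (0.63 ± 0.21), Ctnnd1 (0.55 ± 0.13) and Jam3 (0.47 ± 0.12), and Cldn15 (-1.05 ± 0.23) fell with Emp1 and Cldn1. Of 13 cadherins Cdh5 was higher (1.51 ± 0.12, adjusted p = 4.77e-08), Cdh1 was lower (-0.34 ± 0.10, adjusted p = 0.013) and 11 did not pass, with a median of 0.02. In the actin bundling and filopodia list 3 of 23 were higher, Evl (0.85 ± 0.10), Marcksl1 (0.47 ± 0.11) and Enah (0.46 ± 0.08). Another 3 were lower, Diaph1 (-0.55 ± 0.09), Actn1 (-0.38 ± 0.13, not called after repeated quantile normalization) and Fmnl2 (-0.28 ± 0.09), and 17 did not pass, with a median of 0.05.

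Likeness of pattern was measured as the root mean square difference of the 6 group means after centring each gene, and the 3 most like genes are named as a description. For Fscn1 they were Dlk1 (0.54), Uty (0.58) and Igf2bp3 (0.73), and for Spats2 Uty (0.23), Dlk1 (0.24) and Alb (0.46). Cdh17 had St8sia1 (0.69), Stfa1 (0.72) and Ccr9 (0.76), and Stc1 had Cstdc5 (0.37), St8sia1 (0.43) and Ccr9 (0.49). The shared pair, chosen for this likeness, was lower in FL LT-HSC than in the other FL groups as well. The ganglioside sialyltransferase gene St8sia1 averaged 6.93, 8.65 and 9.23 in the FL populations (LT-HSC, ST-HSC, MPP). The chemokine receptor gene Ccr9 averaged 6.16, 9.56 and 9.77. Unlike Cdh17 and Stc1, Ccr9 was lower in FL LT-HSC than in the BM groups, which averaged 6.65 to 7.53. Stfa1 and Cstdc5 belong to a family of near-identical stefin genes, so their signals are uncertain. Nrep had Col18a1 (0.22), Hif3a (0.29) and Kdm5d (0.31), Rasgrp3 had Bank1 (0.24), Lrguk (0.34) and Ramp2 (0.35), Tmem47 had Palld (0.35), Ndn (0.39) and Arhgap29 (0.43), and Amt had Ocln (0.22), Slit2 (0.25) and Ptprb (0.26). Bank1, a B cell adaptor gene chosen for its likeness to Rasgrp3, was highest in FL ST-HSC (10.99) and lowest in BM ST-HSC (8.11). Uty and Kdm5d are Y-linked and Alb is a liver gene.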

How the data were processed

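RNA was labelled from 2 ng of total RNA with 10 cycles of PCR before in vitro transcription, per the labels' protocols. The authors deposited log2 signals for each probe set, made in R 3.5.01 with oligo, per the submitters' processing notes; background correction, normalization and summarization are, in the sources used here, not given. Of 22203 probe sets, 19572 carried 1 symbol in the platform annotation, and for a repeated symbol the probe set with the highest mean was kept, leaving 19505 genes. The 6 group means were fitted together, over 18 arrays, by lmFit and eBayes of limma 3.58.1 (R 4.3.3). Adjusted p is Benjamini-Hochberg over all genes, with a threshold of 0.05. Errors are SE of the fit, and the number of arrays limits precision: the median SE was 0.17 for a population contrast, 0.10 for the average and 0.24 for the interaction.

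The genes, lists and tests were chosen with earlier results of these data known. Genes named are the 8, their listed relatives, the 3 genes most like each in pattern, and up to 4 called members of each other list with the largest averaged difference, or all where a count was 5 or fewer. Marker lists are given as mean log2 value per array. Alternatives were each array left out, median centring, repeated quantile normalization, no dim genes (lowest 30%), trend and robust eBayes, only the groups compared, no sgEzh2 arrays, no narrow arrays (interquartile range under 2.9), a replicate block and averaging all probe sets of a symbol.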

Additional observations from a re-analysis of the deposited data

Results flagged for a closer look

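Results for 5 genes stand out because their fetal minus adult difference itself differed between populations. If the genes were picked for that difference within 1 population, these values are not independent of the choice. For Cdh17 the interaction F was 102, and LT-HSC minus MPP differed between FL and BM by -3.59. For Stc1 these values were 47 and -2.26, for Fscn1 17.5 and -2.52, and for Tmem47 15.4 and -1.46. Rasgrp3 had an F of 29.1 with ST-HSC highest in FL and lowest in BM. The F test calls of Fscn1 and Tmem47, and the LT-HSC minus MPP interaction call of Tmem47, were lost on leaving out single arrays, as given above. The calls lost without the 4 sgEzh2 arrays are named there too. No test of single outlying arrays was made.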

How the results depend on the processing

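Of 1704 recomputed values of the 64 tested results of the 8 genes, 1629 kept their side of the threshold, 64 lost the call and 11 gained one. A change of sign was counted only where a difference was called, and 0 were found. Small differences that were not called could change sign. Rasgrp3 in FL LT-HSC minus MPP went from 0.21 to as low as -0.19, and Amt in FL LT-HSC minus ST-HSC from 0.30 to -0.19. Of 852 values of the FL minus BM differences, 849 moved by less than the spread between arrays. The others were Fscn1 in LT-HSC (1.93 without BM LT-HSC c) and, without the 4 sgEzh2 arrays, Rasgrp3 (1.26) and Stc1 (1.92) in MPP. The calls of Cdh17, Stc1 and Nrep among FL populations, and the interaction of Cdh17, held in every setting run. Amt is among the dimmest 30% of genes and has no value without them.

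Leaving out 1 array gave 3 to 6 of the 8 genes called for FL LT-HSC minus MPP (5 with all arrays), 1 to 3 for BM LT-HSC minus ST-HSC (1), 0 to 3 for BM ST-HSC minus MPP (3) and 3 to 5 for the interaction F (5). Without BM LT-HSC c these were 6 in FL and 3 in BM; without BM ST-HSC c the count for BM ST-HSC minus MPP was 0, and without FL MPP a that for the F test was 3. Without the sgEzh2 arrays the counts were 3 for FL LT-HSC minus MPP, 1 for FL ST-HSC minus MPP (3 with them), 1 for the LT-HSC minus MPP interaction (4) and 3 for the F test. With only the groups compared, 1 gene was called for BM LT-HSC minus MPP (2) and 0 for BM LT-HSC minus ST-HSC.

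Of the listed pathway genes, 51 were called in the averaged FL minus BM difference and 31 without the sgEzh2 arrays. In LT-HSC 19 were called, 10 without the sgEzh2 arrays, 9 with only the groups compared and 11 to 23 on leaving out 1 array. In ST-HSC 36 were called, 19 without the sgEzh2 arrays, 17 without the narrow arrays and 20 to 52 on leaving out 1 array. In MPP 15 were called, 2 without the sgEzh2 arrays, 32 without the narrow arrays, 36 with only the groups compared and 9 to 24 on leaving out 1 array. Over all genes the 8 tested contrasts called 106 to 1190 genes, 3 to 559 without the sgEzh2 arrays, 211 to 1456 without the narrow arrays and, for the 6 within 1 source, 11 to 1016 with only the groups compared. The FL minus BM contrasts called 25.1% of all genes in the average, 7.66% in LT-HSC, 18.7% in ST-HSC and 5.47% in MPP. On leaving out 1 array these were 947 to 1704 genes in LT-HSC, 1462 to 6125 in ST-HSC and 635 to 1569 in MPP. The counts over all genes thus shifted too, and nothing is read from the shifts about the pathway genes. Dropping arrays or groups leaves fewer arrays. The cause of the other shifts was not tested. Centring and quantile normalization moved the median of all genes by at most 0.036 and turned 0 of the 51 pathway calls; centring lost 0 of them and quantile normalization 4 (Actn1, Map2k1, Smad7 and Phgdh).

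Whether the letters pair the arrays is not given in the labels, and 3 arrays a group cannot decide it. Deviations of same-letter arrays correlated at -0.46 to 0.53 (median -0.03) over all groups. Within a source the same-letter median was -0.04 in FL and 0.10 in BM, against 0.03 and -0.08 for other letters. With the replicate block Amt in FL ST-HSC minus MPP was 1.3 with an adjusted p of 0.0595 (limma), and no other call of the 8 genes changed. Without detection calls, signal near background cannot be told from none, and 3 arrays a group limit what differences could be called.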
